A study of Mus musculus with 144 samples.

Results

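The data compared here are microglia with much and with almost no RNA of Gpr84, which encodes a G protein-coupled receptor of medium-chain fatty acids. The cells were chosen by the measured Gpr84 level itself. In cells with at least 1000 detected genes (genes with an FPKM, the assigned fragments scaled to gene length and to the cell's total, of 1 or more), those with Gpr84 at an FPKM of 10 or more are called Gpr84-high and those below 1 Gpr84-low. Of 144 sequenced cells, 140 had enough genes, and 103 of these fell into the comparison as 61 Gpr84-high and 42 Gpr84-low cells. The remaining 37 lay between the limits and are called intermediate.

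Each cell was 1 sorted microglial cell from the retina of Iba1-EGFP mice, in which the Iba1 gene marks microglia and other macrophages with a green fluorescent protein, so that Iba1-positive border macrophages could pass the same sort. Mice had been given PBS (vehicle; 10 to 14 weeks of age), ripasudil, an inhibitor of the ROCK kinases, at 1 mg/kg (14 weeks) or ripasudil at 10 mg/kg (12 weeks), with 48 cells in each group and 16 of them on each of 3 plates. The labels gave no animal, no route or time of dosing and no statement on injury of the eyes sampled, so each treatment group counted as 1 sample and cells were not treated as replicates. Age and dose were confounded, and neither is the subject here. The 2 classes were compared within each group, giving 3 differences per gene.

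GPR84 is a receptor coupled to inhibitory G proteins and is made mainly by myeloid cells, in which inflammatory stimuli are known to raise its RNA. TNF and interleukin 1 alpha (gene Il1a) are cytokines released by activated microglia, and together with complement C1q they are known to drive a reactive state of astrocytes. The series title links GPR84 to a subpopulation of retinal microglia that express both cytokines. The question was which other genes differ between Gpr84-high and Gpr84-low cells, and whether Tnf and Il1a are among them once the number of detected genes is taken into account.

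Gpr84 RNA ranged from 0 to an FPKM of 1784, with a narrow gap at the upper limit only. In Gpr84-high cells the FPKM had a median of 280 in the PBS group (lowest 17.4, highest 1534), 305 at 1 mg/kg (38.99 to 1784) and 355 at 10 mg/kg (27.7 to 1572). In Gpr84-low cells the medians were 0.43, 0.24 and 0.46, and Gpr84 was listed at exactly 0 in 1, 4 and 2 of these cells. No cell lay between 9.63, the highest value below the upper limit, and 17.4, the lowest above it, whereas values around the lower limit were continuous (0.971 and 1.01 on its sides). The cell at 17.4 had 66796 assigned reads, 2 of them on Gpr84, and the cell at 9.63 had 9 on Gpr84. The edges of the gap thus rest on few reads. As the Gpr84 levels defined the classes, they are a description and were not tested. Assigned reads on Gpr84 had medians of 763, 1159 and 1346 per Gpr84-high cell in the 3 groups, but 3, 1 and 2 of these cells had fewer than 10 such reads. In intermediate cells the medians were 3.5, 3.5 and 3.0 reads, so a few reads separated them from the Gpr84-low cells, with 1, 0.50 and 1. Gpr84 (ENSMUSG00000063234) lies on chromosome 15 at 103308235 to 103310612, minus strand of GRCm38, and has 2 exons, part of which also belong to the gene model Gm49482, which was left out with it.

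**Figure D1:**
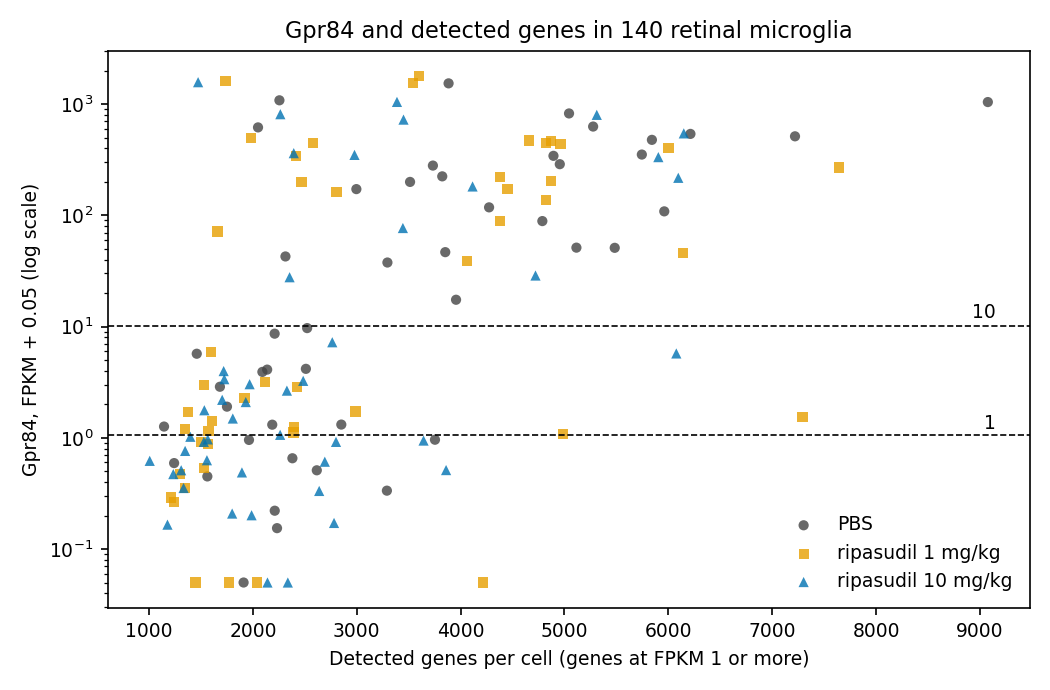
Gpr84 level (FPKM + 0.05, log scale) against the number of detected genes in the 140 kept cells, 1 point per cell, coloured by treatment group; dashed lines mark the limits of 1 and 10. Most cells above the upper limit have more detected genes than the cells below it, and the points leave a gap between 9.63 and 17.4.

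Gpr84-high cells made up 25 of 46 kept cells in the PBS group (54.3%, exact Clopper-Pearson 95% interval 39.01 to 69.1), 22 of 47 at 1 mg/kg (46.8%, 32.1 to 61.9) and 14 of 47 at 10 mg/kg (29.8%, 17.3 to 44.9). These intervals cover counting error only. Each plate held members of both classes from every group, 6, 12 and 7 Gpr84-high PBS cells on plates 1, 2 and 3, for example, but only 5, 2 and 3 Gpr84-low ones. Gpr84-low cells numbered 10, 11 and 21 in the 3 groups, and these small numbers set the precision of all that follows.

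Both classes carried microglial RNA. All 61 Gpr84-high and all 42 Gpr84-low cells had at least 3 of 10 microglial markers, and Csf1r, the receptor for colony-stimulating factor 1, was detected in every cell (median FPKM 1012 and 668). Markers tied to the resting microglial state stood far apart in level: Tmem119 had a median FPKM of 360 in Gpr84-high and 7.96 in Gpr84-low cells, and the ADP receptor P2ry12 of 247 and 1.59. At least 3 of 9 border macrophage markers were found in 7 of 61 Gpr84-high and 4 of 42 Gpr84-low cells, with summed FPKM of 0 to 4666 and 0 to 6658. At least 3 of 9 neutrophil markers were found in 7 and 2 cells, with sums of 0 to 128112 and 0 to 55.9, Camp being at 0 in both classes and Ly6g and Ngp in the Gpr84-low cells. At least 3 of 10 rod photoreceptor markers were found in 5 and 6 cells, with sums of 0 to 207 and 0 to 15491. The Müller glia list reached 3 markers in 14 Gpr84-high cells and 1 Gpr84-low cell, but Apoe, Glul, Vim and Clu on that list are also expressed by microglia. The part of these other transcripts in the differences between classes was not tested, apart from the values below without such cells.

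The most general difference between the classes was the number of genes detected. Gpr84-high cells had medians of 4787 detected genes in the PBS group, 4379.5 at 1 mg/kg and 3447 at 10 mg/kg, against 2221, 1498 and 1800 in Gpr84-low cells. The ranges overlapped, from 1472 to 9077 over all Gpr84-high and from 1006 to 4217 over all Gpr84-low cells. Intermediate cells, with medians of 2137, 2017.5 and 1949.5, were like Gpr84-low cells in this respect. Assigned reads were medians of 2423199, 2657955.5 and 1522802.5 in Gpr84-high and of 1654953.5, 1801902 and 1628402 in Gpr84-low cells, so depth was higher in 2 of the 3 groups only. With every cell thinned to 300000 reads, Gpr84-high cells still had 4758, 4258 and 3265 genes with a read, and Gpr84-low cells 2406.5, 1722 and 1966. Thinning left out 4, 1 and 2 Gpr84-high cells with fewer reads and no Gpr84-low cell. More RNA per cell and a larger set of active genes cannot be told apart from these values.

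On the log2 scale and without regard to detected genes, about every other gene tested was higher in Gpr84-high cells and none passed the test as lower. The difference of mean log2(FPKM + 1), Gpr84-high minus Gpr84-low, was computed within each group for the 3714 genes detected in 25% or more of the kept cells, and the 3 differences were tested with limma, which borrows the spread between groups across genes. At a Benjamini-Hochberg adjusted p under 0.05, 1954 genes were higher (52.6% of those tested) and 0 lower (0%); with the same limma p unadjusted for the number of tests, 2187 were higher and 4 lower. The median difference over all genes was 1.18 (0.91 to 1.29 over the 3 groups), and 67.5% of genes were positive in all 3 groups against 2.34% negative in all. The count of higher genes was 1065 without plate 1, 823 (and 1 lower) without plate 2 and 1012 without plate 3. Of the 3714 genes, 1442 were detected in fewer than 25% of the cells outside the Gpr84-high class and so entered the test through that class, as did 1063 of the 1954; among the other 2272 genes, 891 (39.2%) were called higher. When the means of FPKM themselves were compared, as a log2 ratio of mean FPKM + 1 that gives the highest cells most weight, also without adjustment, limma called 0 genes (280 at a p unadjusted for the number of tests) and the median over all genes was 0.17. The p-values measure only the spread between 3 treatment groups, each 1 sample whose cells were on the same 3 plates.

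Tnf and Il1a stood near the top of that ranking. Tnf (chromosome 17, 35199381 to 35202007, minus strand) had a median FPKM of 168 in Gpr84-high PBS cells (0.27 to 1794), 134 at 1 mg/kg (0 to 2112) and 128 at 10 mg/kg (0 to 867). In Gpr84-low cells the medians were 1.33 (0 to 193), 0.56 (0 to 229) and 0.89 (0 to 438). High values were therefore frequent in one class and rare in the other, but single Gpr84-low cells reached the same range. Il1a (chromosome 2, 129299610 to 129309972, minus strand, sharing exon sequence with Gm14023) had medians of 141 (0 to 5153), 330 (0 to 2604) and 153 (0 to 1074) in Gpr84-high cells. Its medians in Gpr84-low cells were 1.64 (0.30 to 994), 0.51 (0 to 132) and 1.01 (0 to 2714). The highest Il1a value of a Gpr84-low cell thus exceeded every Gpr84-high value at 10 mg/kg.

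The unadjusted differences were 4.45, 3.96 and 4.11 for Tnf (mean 4.17 ± 0.26, SD over 3 groups; limma adjusted p 0.00020) and 4.40, 5.49 and 3.62 for Il1a (4.51 ± 0.94; limma adjusted p 0.00020). They exceeded the median of all genes by 2.99 and 3.32 and lay at the 99.8th and 99.97th percentiles of the 3714 genes. As a log2 ratio of mean FPKM + 1, also without adjustment, Tnf differed by 3.98 and Il1a by 2.93 (limma adjusted p 0.277 and 0.589).

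An FPKM of 10 or more of Tnf was found in 39 of 61 Gpr84-high cells (63.9%, 50.6 to 75.8), 4 of 37 intermediate cells (10.8%, 3.03 to 25.4) and 3 of 42 Gpr84-low cells (7.14%, 1.498 to 19.5). For Il1a the numbers were 45 (73.8%, 60.9 to 84.2), 9 (24.3%, 11.8 to 41.2) and 6 (14.3%, 5.43 to 28.5). Both cytokines reached this level in 37 Gpr84-high cells, 4 intermediate cells and 1 Gpr84-low cell, so 37 of the 39 Gpr84-high cells with Tnf also had Il1a. Neither cytokine reached it in 14 Gpr84-high cells (22.95%, 13.2 to 35.5). By group, both cytokines were found in 16 of 25, 13 of 22 and 8 of 14 Gpr84-high cells and in 0 of 10, 1 of 11 and 0 of 21 Gpr84-low cells. In shallow cells this level rests on very few reads. Fewer than 300000 assigned reads were present in 4, 1 and 2 Gpr84-high cells and in no Gpr84-low cell. A Gpr84-high PBS cell counted with both (Tnf 17.9, Il1a 141) had 34021 reads. The intermediate cells with both lay close to the limit, with Tnf at 10.8 to 13.2 and Il1a at 13.5 to 19.6. Il1b, the related cytokine, reached an FPKM of 10 in only 6 Gpr84-high, 2 intermediate and 3 Gpr84-low cells and was too rarely detected to be tested.

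Cells of like numbers of detected genes were also set side by side, pooled over the 3 groups. The shares with Tnf or Il1a differed little between classes below 3000 genes. They differed more from 3000 to below 4000, where only 4 Gpr84-low cells lay. Whether the contrast depends on the number of detected genes was not tested. Among cells with 2000 to below 3000 detected genes, Tnf reached an FPKM of 10 in 2 of 12 Gpr84-high, 3 of 16 intermediate and 1 of 11 Gpr84-low cells, and Il1a in 3, 7 and 3. Some of these values rest on few reads. A Gpr84-high cell with Tnf at 17.9 had 34021 assigned reads. The intermediate cells with Tnf were at 10.8, 12.0 and 13.2, with 225273 to 323238 reads. Below 2000 genes, none of 4 Gpr84-high cells had either cytokine, and among 26 Gpr84-low cells 0 had Tnf and 2 had Il1a. From 3000 to below 4000 genes, Tnf was found in 9 of 12 Gpr84-high and 1 of 4 Gpr84-low cells and Il1a in 11 and 0. At 4000 genes or more, Tnf was found in 28 and Il1a in 31 of 33 Gpr84-high cells, while of 3 intermediate cells there 0 had Tnf and 1 had Il1a, and the only Gpr84-low cell had both. The classes therefore met mainly below 4000 genes, where 28 of the 61 Gpr84-high cells lay.

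When only the range of detected genes that both classes shared within a group was used (25 Gpr84-high cells with a median of 2578 genes and 23 Gpr84-low cells with 2336), Tnf at an FPKM of 10 or more was found in 9 (36%, 17.97 to 57.5) and 3 cells (13.04%, 2.78 to 33.6). Il1a was found in 11 (44%, 24.4 to 65.1) and 4 (17.4%, 4.95 to 38.8), and both in 8 (32%, 14.9 to 53.5) and 1 (4.35%, 0.11 to 21.9). Gpr84-high cells with only 34021 and 30204 assigned reads are among those counted with both, where this level rests on very few reads. These shares are over cells pooled from the 3 groups and their difference was not tested.

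**Figure D2:**
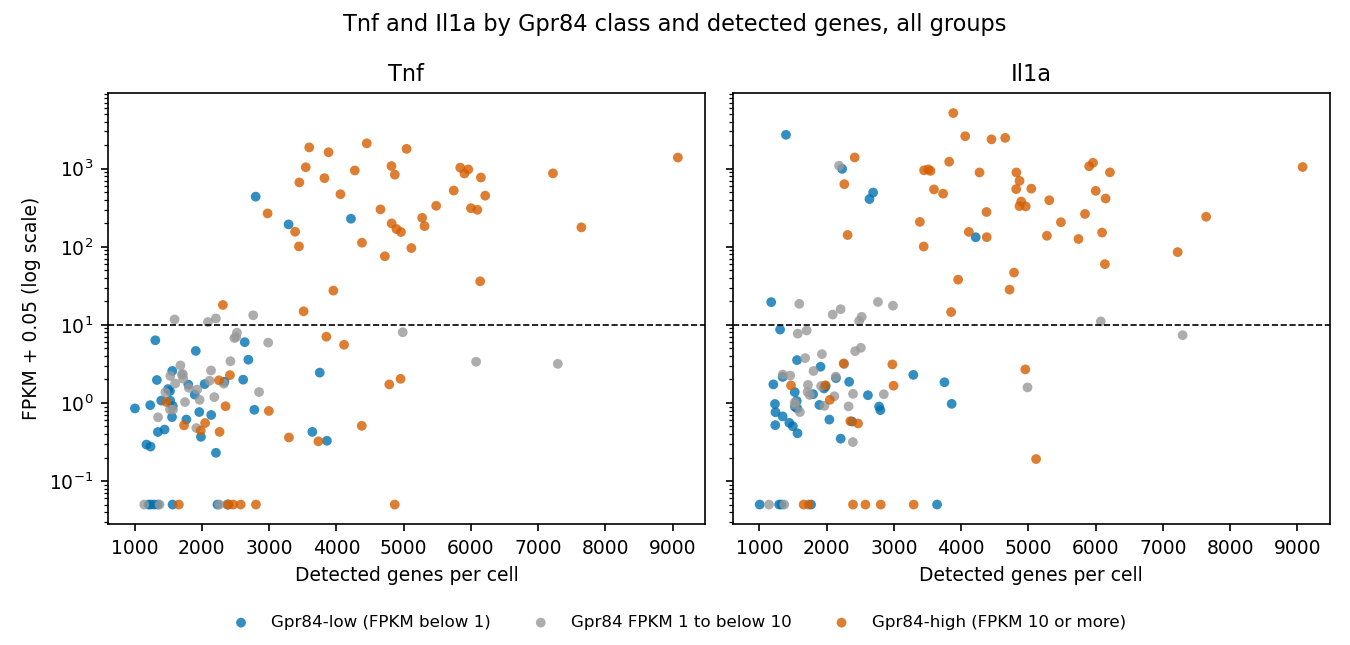
Tnf and Il1a (FPKM + 0.05, log scale) against detected genes, 1 point per kept cell of any group, coloured by Gpr84 class; the dashed line marks an FPKM of 10. Gpr84-high cells with 4000 or more detected genes are mostly above the line, and Gpr84-high cells with fewer than 2000 are all below it.

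Adjusted for detected genes, the differences in Tnf were 0.14, -1.41 and 1.77 (mean 0.17 ± 1.59, SD over 3 groups; limma adjusted p 0.989), with no common direction. Those in Il1a were 2.16, 0.11 and 2.00 (1.42 ± 1.14; limma adjusted p 0.748), positive in 3 of 3 groups and past the size of 1 used below, but not past the test. With intermediate cells counted as low, Tnf was at 1.19 and Il1a at 2.16; with them counted as high, Il1a was at 0.73, and without cells holding 3 markers of other myeloid cells at 0.94. The adjustment fitted log2(FPKM + 1) on class and log2 of detected genes within each group. Neither value shows that the classes are alike in these cytokines, as the groups spread widely and few cells of the 2 classes shared a range.

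No gene was called after this adjustment. With limma, 0 of 3714 genes were higher (0%) and 0 lower (0%) at an adjusted p under 0.05, the smallest adjusted p being 0.444. At an unadjusted p under 0.05 there were 273 genes (7.35%), 160 higher and 113 lower. The 3 groups shared a sign for 26.8% of genes. Of the 8 possible sign patterns 2 agree, so this share was near that of unrelated signs. The correlation of differences across genes between pairs of groups was 0.05 to 0.10, against 0.41 to 0.48 without adjustment. Genes are not independent replicates, and detected genes per cell enter every gene's unadjusted difference. As a second description, genes with the same sign in the 3 groups and a mean difference of at least 1 on the log2 scale numbered 225 higher (6.06%) and 175 lower (4.71%). Of the 225, 95 were detected in fewer than 25% of the cells outside the Gpr84-high class and entered the test through that class. Among the 2272 genes that did not, 130 (5.72%) passed this rule upwards. Counts of list members below are read against these shares, and none of the genes named below passed the limma test after adjustment.

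The genes with the largest positive adjusted differences came from several functions. Ncf1, the organizing subunit of the phagocyte NADPH oxidase, had differences of 2.21, 2.57 and 4.93 (mean 3.24 ± 1.48, SD over 3 groups). Its median FPKM was 77.3, 108 and 170 in Gpr84-high and 0.60, 0.30 and 0.21 in Gpr84-low cells, and it was detected in 56 of 61 and 7 of 42 cells. Ncf1 shares exon sequence with Gtf2ird2, so the origin of some of its reads is uncertain. P2ry13, a purinergic receptor for ADP, had differences of 3.09, 2.76 and 3.45 (3.10 ± 0.35), the smallest spread between groups among the 15 most positive genes. Its medians were 274, 292 and 282 against 0.95, 0.86 and 0.85, although single Gpr84-low cells reached 1650. C5ar1, the receptor for the complement fragment C5a, had differences of 2.01, 2.87 and 3.68 (2.85 ± 0.84), with medians of 148, 338 and 177 against 2.61, 0.97 and 0.95. Eif3i, Hnrnpab, Ddx56 and Polr2l, named next, had larger mean differences than C5ar1. For Ncf1, P2ry13 and C5ar1, limma gave an adjusted p of 0.444.

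The other 12 of the 15 genes with the largest positive differences were mostly genes of general cell functions. They included the translation initiation factor subunit Eif3i (3.06), the RNA-binding protein Hnrnpab (3.02), the RNA helicase Ddx56 (2.98), the RNA polymerase subunit Polr2l (2.92), the G protein gamma subunit Gng10 (2.69) and Bmyc (2.61). The proteasome subunit Psmd6 (2.60), the chaperonin subunits Cct7 (2.57) and Cct8 (2.56), Syngr1 (2.56), the secreted protein Olfml3 (2.51), known from microglia, and the lysosomal membrane protein Lamp1 (2.45) followed. Ddx56 was detected in 16 of 25, 10 of 22 and 5 of 14 Gpr84-high cells and in 0 of 10, 0 of 11 and 1 of 21 Gpr84-low cells, but Ddx56, Eif3i, Bmyc and Psmd6 were detected in fewer than 25% of the cells outside the Gpr84-high class and entered the test only through it, so that their difference is in part given by the filter. Psmd6 rested on the 10 mg/kg group, with differences of 1.99, 0.18 and 5.63. Hnrnpab, Gng10, Bmyc, Cct7, Cct8 and Lamp1 share exon sequence with other gene models, which makes their values uncertain. Several of these values depended on the cells used. Without plate 3, Cct8 was at 0.14, Lamp1 at 0.60 and Bmyc at 0.78, against Gpr84-low cells at 0 Eif3i was at 0.29, and with intermediate cells counted as high all 15 were smaller by more than 1.5 times (0.29 to 1.73).

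Only 5 genes met the same rule in the negative direction, which asks for the same sign in each group with and without adjustment, so that genes with lower adjusted values such as Apoe (-2.72) and Rhog (-2.49) are not among them. Without adjustment 87 genes were negative in all 3 groups. The 5 genes that met the rule were, with adjusted means, glutathione peroxidase Gpx1 (-2.07), the interferon-inducible Ifi207 (-1.90), the adhesion receptor Adgre5 (-1.65), Ms4a4a (-1.63) and platelet factor Pf4 (-1.45). Gpx1 was abundant in both classes, with median FPKM of 602, 508 and 398 in Gpr84-high and 961, 1628 and 663 in Gpr84-low cells, and its differences of -0.16, -4.10 and -1.96 were unequal. Its mean was -0.14 without plate 3 and -0.042 in cells with at least 2000 genes. Pf4, a marker on the border macrophage list, was detected in 14 of 61 and 13 of 42 cells, and Ms4a4a in 12 and 10. Ifi207 was detected in 22 and 12 of these cells and Adgre5 in 21 and 11. Pooled over groups, Ifi207 and Adgre5 were thus detected in a larger share of Gpr84-high cells, against the sign of their differences. Without cells holding 3 markers of border macrophages, monocytes or neutrophils, the mean of Pf4 was -0.60, that of Ms4a4a -1.03 and that of Adgre5 -0.71, each smaller by more than 1.5 times. Adgre5 shares exon sequence with Ddx39.

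**Figure D3:**
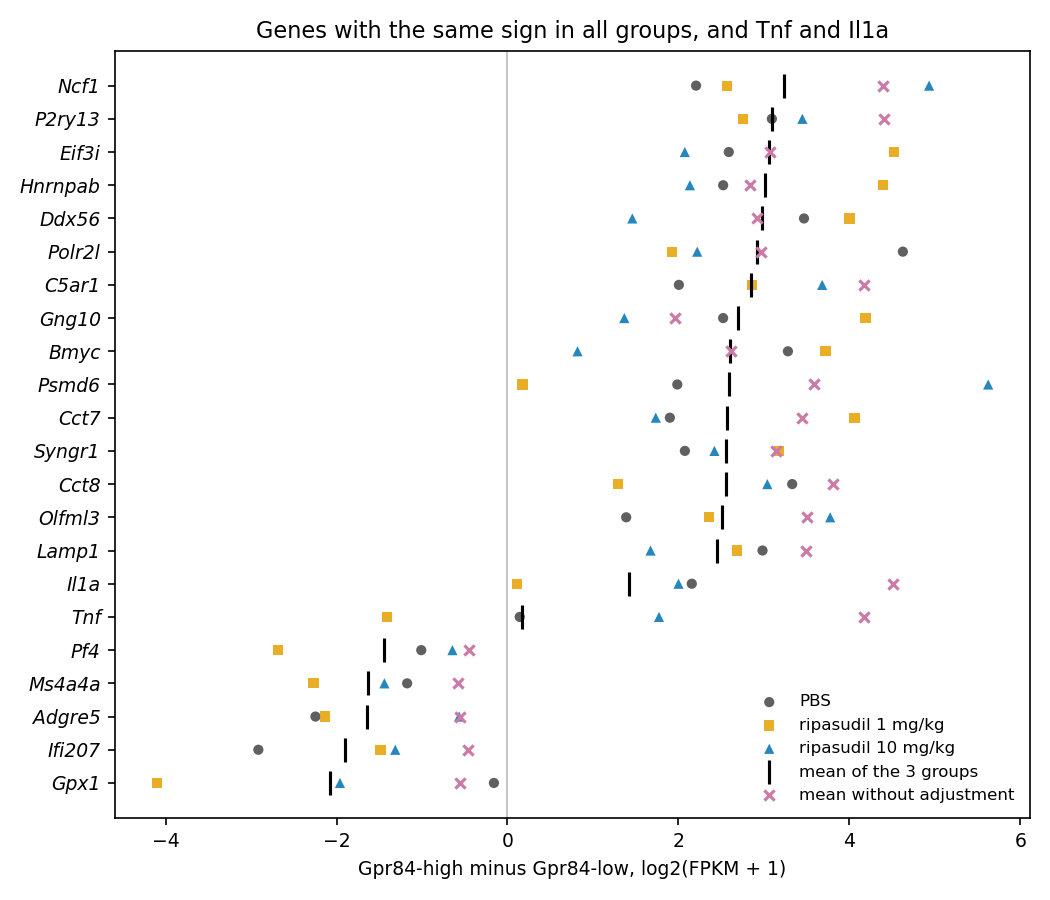
Difference of log2(FPKM + 1), Gpr84-high minus Gpr84-low, for the 15 most positive and the 5 most negative of the genes that had 1 sign in all groups with and without adjustment, gene models left out, and for Il1a and Tnf; coloured points are the adjusted differences of the 3 treatment groups, bars their mean and crosses the mean without adjustment. Tnf is at 4.17 without and 0.17 with the adjustment, and P2ry13 at 4.41 without and 3.10 with it.

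Intermediate cells lay nearer to one class or the other depending on the gene and the measure. P2ry13 was detected in 32 of 37 intermediate, 55 of 61 Gpr84-high and 15 of 42 Gpr84-low cells, and C5ar1 in 33, 54 and 22, whereas Ncf1 was detected in 19, 56 and 7. In a fit with 3 classes, the 15 positive genes had a median difference of 2.75 for Gpr84-high minus Gpr84-low but of 0.26 for intermediate minus Gpr84-low, and in 10 of the 15 the intermediate value lay between the other classes. The genes were chosen for their Gpr84-high minus Gpr84-low difference, which widens the gap between these medians, so the gap is a description only. The 5 negative genes had medians of -1.58 and -0.51 (Gpx1 -1.67 and -2.81), against 0.15 and -0.25 over all genes tested. Intermediate cells had fewer assigned reads than either class, with medians of 541695, 884333.5 and 597882.5, and the part of this in their values was not tested.

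Homeostatic microglia genes, which mark the resting state, were the list with the highest adjusted median. The median over its 22 tested members of 24 was 1.06 (0.94, 0.96 and 1.61 by group) against 0.008 over all genes, 19 of 22 were positive against 50.6% of all genes, and 8 passed the size rule upwards and 0 downwards. Among those 8 were P2ry13, Olfml3, Selplg (1.97), Sparc (1.82), Siglech (1.69), the fructose transporter Slc2a5 (1.65) and P2ry12 (1.51). Tmem119 (1.58) was not among them because it differed by 3.46, -0.034 and 1.31. Fcrls (-0.50) and Crybb1 (-0.042) were among the 3 members below 0. The list's median was 0.12 when intermediate cells were counted as high.

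Lysosomal and phagocytic genes were also mostly positive, with 24 of 29 above 0, a median of 0.34 (0.34, 0.98 and 0.37) and 6 past the size rule upwards (Lamp1, Ctsl, Hexa, Atp6ap1 and Ctss among them) against 0 downwards. With intermediate cells counted as high the direction turned, with 12 of 29 positive and a median of -0.050, and 16 of 29 were positive without plate 1. Ctsl, a lysosomal protease, had a mean difference of 2.41 and shares sequence with 2 gene models. Complement genes had a median of 0.49 with 7 of 8 positive. The integrin chains Itgb2 (1.43) and Itgam (1.32), which form complement receptor 3, and the C1q chains C1qa (0.37), C1qb (0.36) and C1qc (0.43) were positive, while C3ar1, the receptor for C3a, was at -1.43. Only C5ar1 upwards and C3ar1 downwards passed the size rule.

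Disease-associated microglia genes, induced around damage, were divided. Their median was 0.24, and Ctsl, the lipoprotein lipase Lpl (1.51) and the cystatin Cst7 (1.28) passed the size rule upwards. Apoe, the apolipoprotein, was at -2.72 (-4.75, -2.01 and -1.39; limma adjusted p 0.479), the only member to pass downwards. Without adjustment Apoe differed by -2.34, 0.039 and 0.64, so its sign was not shared between groups. Galectin-3, Lgals3, was at -2.43 with differences of -3.68, -4.49 and 0.87.

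Interferon-stimulated genes had the lowest adjusted median of the 22 lists. It was -0.84 (-1.11, -1.51 and -0.59 by group) over 12 tested members of 25, of which 1, Bst2 (0.55), was positive. The 5 members past the size rule downwards were Ifi207 (-1.90), the DNA-sensing family member Ifi204 (-1.66), Ifit3 (-1.50), the oligoadenylate synthetase Oas1a (-1.30) and the chaperone Rtp4 (-1.19), and none passed upwards. Most cells of either class had little of this RNA. Ifit3 was detected in 8 of 25, 4 of 22 and 6 of 14 Gpr84-high cells and in 4 of 10, 2 of 11 and 4 of 21 Gpr84-low cells. At 10 mg/kg this was a larger share of Gpr84-high cells, against the sign of its adjusted difference. Without adjustment 4 of 12 members were called higher (33.3%, against 52.6% of all genes tested). The list's median without adjustment was 0.91, below the 1.18 of all genes. As an unadjusted log2 ratio of mean FPKM + 1 it was 0.18 beside 0.17 for all genes. The adjusted median was -0.48 without plate 3 and -0.47 without cells holding 3 markers of other myeloid cells. It was -1.08 in the range of detected genes shared by both classes (6, 3 and 14 Gpr84-low cells). In cells with at least 2000 detected genes it was -2.09, with 6, 2 and 8 Gpr84-low cells.

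The interferon-stimulated response element, through which interferon acts on such genes, has the core TTTCNNTTTC. It was looked for on both strands in the 250 bases before the RefSeq start of each gene (GRCm38.p6), a search chosen after the values were seen; motifs of ETS-family factors were also tried among the leading genes and not pursued. The core was in 2.98% of 32851 windows, in 4.42% of the 1878 tested genes that had a window, and in 5 of the 8 tested interferon members that had one. Ifi204 and Rtp4 had no entry. The core was not limited to the members past the size rule: Isg15, which did not pass, had 3 copies and Bst2, the positive member, 2. The windows of the 3 remaining genes past the size rule are shown because each holds the core, in capitals. Oas1a holds 2 overlapping copies and Ifit3 2 separate ones. None of these windows overlaps an annotated GENCODE exon, and a match is not evidence of binding in these cells. They lie at chr1:173741810-173742059 (Ifi207, minus strand), chr19:34583279-34583528 (Ifit3, plus strand) and chr5:120907526-120907775 (Oas1a, minus strand).
Ifi207: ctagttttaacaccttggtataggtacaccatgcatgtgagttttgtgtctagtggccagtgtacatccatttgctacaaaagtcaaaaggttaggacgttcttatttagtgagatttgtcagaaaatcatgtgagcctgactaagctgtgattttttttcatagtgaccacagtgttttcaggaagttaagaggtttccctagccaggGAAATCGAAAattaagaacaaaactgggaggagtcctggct
Ifit3: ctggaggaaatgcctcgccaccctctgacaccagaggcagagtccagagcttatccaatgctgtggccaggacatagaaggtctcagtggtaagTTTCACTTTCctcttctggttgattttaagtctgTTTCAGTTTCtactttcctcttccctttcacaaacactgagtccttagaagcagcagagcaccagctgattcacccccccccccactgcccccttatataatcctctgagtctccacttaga
Oas1a: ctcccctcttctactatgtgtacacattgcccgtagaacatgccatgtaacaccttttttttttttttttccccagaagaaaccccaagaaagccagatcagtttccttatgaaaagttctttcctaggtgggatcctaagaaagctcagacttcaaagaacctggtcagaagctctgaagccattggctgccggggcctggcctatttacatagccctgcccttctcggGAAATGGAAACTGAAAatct

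The lists nearest to the series title had adjusted medians on either side of 0 that turned with the cells used. Of 10 tested cytokine and chemokine genes of 26, 7 were positive with a median of 0.17, and only Il1a passed the size rule. Ccl3 (0.30), Ccl4 (0.23) and Ccl2 (0.17) were small, and Ccl7 was at -1.22. NF-kB genes and their feedback inhibitors, induced together with Tnf, had a median of -0.50 with 2 of 5 positive. Without adjustment all 5 had been called higher by limma, against 52.6% of all genes tested. Their median was then 3.07, which is 1.89 above that of all genes, and as an unadjusted ratio of mean FPKM it was 0.88. With adjustment it was 0.42 without plate 2 and 0.66 with intermediate cells counted as low. The 15 tested immediate early and AP-1 genes, transcription factors induced within minutes of a stimulus and by tissue dissociation, likewise were all called higher without adjustment (median 3.45, 2.26 above all genes) and had an adjusted median of -0.23 with 4 of 15 positive. Their adjusted direction turned without plate 1 (0.20, 11 of 15 positive), against Gpr84-low cells at 0 (0.22, 9 of 15), with intermediate cells counted as low (0.63, 14 of 15) and when adjusted for genes at an FPKM of 10 or more (0.057, 8 of 15). As an unadjusted ratio of mean FPKM their median was 1.96, with 15 of 15 positive and 9 past the size rule (11.4% of all genes). Fos illustrates this, with unadjusted differences of 0.85, 5.74 and 2.22 and adjusted ones of -2.14, 0.080 and -1.12.

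Of the kinases that ripasudil inhibits, Rock1 and Rock2 were detected in too few cells to be tested. The myosin heavy chain Myh9 was at 1.19 (1.25, 0.17 and 2.17) and passed the size rule upwards, and the small GTPase Rhog was at -2.49 (-5.25, -0.75 and -1.47) and passed downwards. Genes of inhibitory G protein signalling, to which GPR84 couples, had a median of 0.14 with 6 of 11 tested members of 28 positive. Gng10 passed the size rule and Rgs10 (2.08) did not, since it was at -0.027 in the 10 mg/kg group, while the alpha subunit Gnai2 was at -0.37. Among other receptors for fatty acids and metabolites, 3 of 14 could be tested, Gpr183 (0.22), the niacin and ketone body receptor Hcar2 (-0.55) and the proton-sensing Gpr65 (-0.81).

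The remaining lists had adjusted medians from -0.40 to 0.39. Adjusted medians were 0.39 for proliferation, 0.35 for Toll-like receptors and adaptors, 0.27 for lipid metabolism and 0.075 for glycolysis. They were 0.030 for oxidative phosphorylation, 0.021 for the actin cytoskeleton and -0.028 for myeloid transcription factors. The cytosolic ribosome (-0.066), stress and redox genes (-0.18), antigen presentation (-0.31) and the inflammasome (-0.40) were below 0. The cytosolic ribosome was also the list with the smallest share of members called higher without adjustment, 7 of 27 (25.9%, against 52.6% of all genes tested). Within antigen presentation, the costimulatory ligand Cd86 (1.57) and Ctss (1.25) passed the size rule upwards and the class II chain H2-Ab1 (-1.23) and H2-Q7 (-1.13) downwards. Among stress and redox genes, Ncf1 passed upwards and Sqstm1 (-2.12), Gpx1 and the thioredoxin Txn1 (-1.64) downwards, while the oxidase subunits Cyba (0.65), Ncf4 (-0.71) and Cybb (-0.83) did not pass. Lists share members, such as Ctsl.

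**Figure D4:**
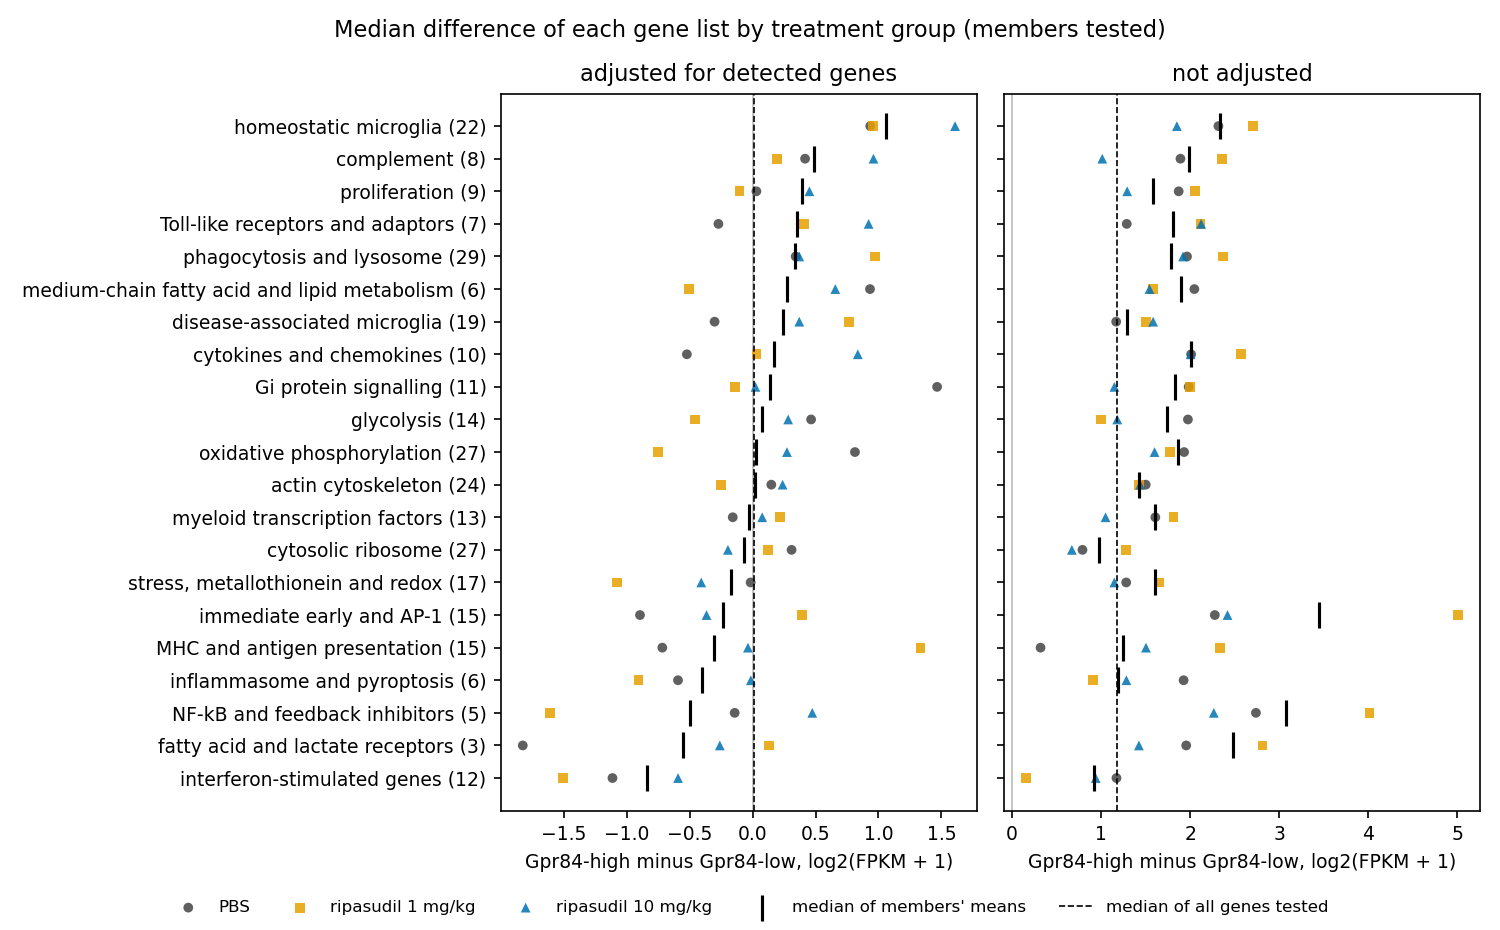
Median difference of log2(FPKM + 1), Gpr84-high minus Gpr84-low, over the tested members of the gene lists described (number in brackets), adjusted for detected genes on the left and not adjusted on the right; points are treatment groups, bars the median of the members' means and the dashed line the median of all genes tested. Homeostatic genes lie highest (1.06) and interferon-stimulated genes lowest (-0.84) after adjustment, while immediate early and NF-kB genes lead without it.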

How the data were processed

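RNA of 144 single retinal microglia was measured. The authors deposited FPKM values for 55364 genes, with STAR 2.7.2b and featureCounts 1.6.1 among the tools on GRCm38.p6, per the submitters' processing notes. The sources used here do not give settings or strand use, and overlapping genes cannot be separated. In each cell FPKM times gene length was scaled to its most frequent value to give assigned reads, 30204 to 4668733 per cell. A median of 53.1% of values were whole reads within 0.01, so no count model was used. Mitochondrially encoded genes were not used here.

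Classes, gene lists, tests and the 22 lists' members were chosen with earlier results of these data known. Each treatment group was 1 sample, and p-values measure the spread between 3 groups. Within each group log2(FPKM + 1) was fitted on class and log2 of detected genes, and the 3 class coefficients were tested in limma 3.58.1 (R 4.3.3) with a trended prior and Benjamini-Hochberg adjustment over 3714 genes, without Gpr84. Differences on this scale understate changes of low genes. The calculation was tested on simulated data with known class effects. That check required estimates of the right size and did not require any gene to be called.

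Genes named singly were up to 15 in each direction with the largest mean adjusted difference among those with 1 sign in all groups, adjusted and not, without gene models and pseudogenes. Tnf, Il1a, Il1b and, from every list, the 2 members furthest from 0 joined them, and other members are examples picked after their values were seen; some list members and 1 list are not reported singly here. Alternatives covered the adjustment, filters, pseudocount, limits on Gpr84, plates, groups and cells with markers of other types. Calculations used pandas 2.3.3, numpy 2.4.6, scipy 1.17.1 and matplotlib 3.10.9 under Python 3.11.15.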

Additional observations from a re-analysis of the deposited data

Results flagged for a closer look

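A cell outside the comparison held high Gpr84. A PBS cell on plate 3 with 876 detected genes, below the minimum of 1000, had a Gpr84 FPKM of 1438.9 and 2604448 assigned reads. The other 3 cells left out for the same reason were below 1 (0, 0.12 and 0.39).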

How the results depend on the processing

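The count of genes called by limma stayed at 0 in the adjusted fits except where stated. Without adjustment for detected genes, 1954 genes were called, 1957 passed the size rule upwards and 1 downwards, and Tnf (4.17) and Il1a (4.51) passed the test. Fits without the treatment group as a block (no replicate block: 6 class means in place of 3 paired differences) called 31 genes, 23 higher and 8 lower. Among them were Ncf1, P2ry13, C5ar1 and Olfml3, which the paired fit did not call. This alternative also used 1 slope on detected genes over all groups, where the main fit used a slope within each group. The part of either change was not tested. Leaving out 1 treatment group at a time gave 0 to 2 called genes, the 2 being Adipor1 and Dynlt1b, both lower, without the PBS group. These fits gave 363 to 406 genes past the size rule upwards and 331 to 365 downwards, since 2 groups share a sign more easily than 3. Tnf ranged from -0.63 without the 10 mg/kg group to 0.96 without the 1 mg/kg group, and Il1a from 1.06 to 2.08.

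Tnf was also below 0 with a pseudocount of 0.1 (-0.0015), with Gpr84-low cells limited to those at 0 (-0.68; only 1, 4 and 2 such cells) and without cells holding 3 markers of other myeloid cells (-0.22). It was 0.85 without plate 2, 1.19 with intermediate cells counted as low and, as a log2 ratio of mean FPKM, which has no adjustment, 3.98. Il1a stayed positive in every alternative run. Genes past the size rule upwards numbered 343 in cells with at least 2000 detected genes, 72 with intermediate cells counted as high, 509 with them counted as low, 393 with Gpr84-low cells at 0, and 422 as the unadjusted log2 ratio. Downwards they numbered 334 with a pseudocount of 0.1, 312 with genes in at least 3 cells, 342 with Gpr84-low cells at 0, 304 without plate 3 and 30 with intermediate cells counted as low. The cause of these moves was not tested. Unadjusted calls numbered 1065 without plate 1, 824 without plate 2 and 1012 without plate 3, and 1362 to 1697 without 1 treatment group.

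Among single genes, the 15 most positive kept their sign in every alternative. Their choice by a shared sign fixed this in advance without adjustment and without 1 treatment group. It also favoured it in the other fits to the same cells, so the kept sign is no support. Of these 15 genes, 10 were smaller by more than 1.5 times as the unadjusted log2 ratio (Gng10 lowest, 0.016). The same held for 3 without plate 3 and for all 15 with intermediate cells counted as high. Of the 5 most negative genes, chosen likewise, only Ms4a4a changed sign, with 0.077 against Gpr84-low cells at 0. Without adjustment the sign changed for Ccl7 (0.084), Nfkbia (3.33), Cd83 (3.07), Myd88 (1.53), Fos (2.93), Klf6 (1.77), Ifi204 (0.076), Rhog (0.94), Arpc2 (1.048), Arpc1b (0.82), Etfa (0.20), Gpr65 (1.37), Hcar2 (2.48), C3ar1 (1.92), Gpi1 (0.82), Rpl6 (0.94), Sqstm1 (1.602), Gsdmd (0.19) and Txnip (1.84). As the unadjusted log2 ratio it changed for Nfkbia (1.88), Cd83 (0.86), Myd88 (1.00), Fos (0.92), Klf6 (0.28), Gpr65 (1.62), Hcar2 (2.49), Cox4i1 (-0.14), Rpl5 (-0.090) and Txnip (1.67). With intermediate cells counted as high it changed for H2-K1 (-0.33), Cd86 (-0.073) and Hcar2 (0.14), and with them counted as low for Nfkbia (0.37), Cd83 (0.66), Fos (0.21), Gpr65 (0.14), Hcar2 (0.19), Mcm5 (-0.059) and Gsdmd (0.19). Against Gpr84-low cells at 0 it changed for Klf6 (0.22), Hcar2 (0.47), Mcm5 (-0.71) and Gsdmd (0.22). Without plate 1 it changed for Ccl7 (0.11), Cd180 (-0.096), Fos (0.16), Gpr65 (0.44) and Hcar2 (0.39), without plate 2 for Cd83 (0.26) and Tubb5 (-0.10), and without plate 3 for Ccl7 (0.52) and Mcm5 (-0.0047). Leaving out 1 treatment group at a time gave -1.06 to 0.29 for Hcar2, -1.35 to 0.16 for Myd88 and -0.096 to 1.37 for Mcm5. Without cells holding markers of other myeloid cells Ccl7 was at 0.045. None of the single values named here had passed the adjusted test. Of 506 list medians recomputed, 419 moved by less than the spread between groups. Of the 22 medians, 8 changed sign without plate 1, 7 without plate 2, 3 without plate 3 and 10 with intermediate cells counted as high.

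Depth limits low genes: an FPKM of 1 can rest on less than 1 read, and 7 Gpr84-high cells had fewer than 300000 reads.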
